A study of Mus musculus with 4 samples.

Results

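The 9 chemokine ligand genes described here are Ccl3, Ccl4, Ccl5, Ccl6, Ccl9, Xcl1, Cxcl2, Cxcl10 and Cxcl16. They were taken by symbol from the 53801 genes of the table of each tumour model, and all 9 had reads in every library. RNA came from blood mononuclear cells of wild-type mice in the B16 model (B16 is a mouse melanoma line) and in the CT-26 model (a mouse colon carcinoma line). In each model a multimer-binding CD8+ population, called circulating tumor-reactive lymphocytes (CTRL) in the labels, was set against a population labelled as the residual of the CD8+ lymphocytes. An MHC multimer carries several copies of a peptide held by an MHC molecule and attaches to T cells whose antigen receptor recognises that peptide. Each of the 4 groups held 1 library of primary cells, and the labels used here give no age, no mouse number and no pooling. The residual population carries the same multimer-binding treatment label as CTRL, so what was left in it is known only from its title.

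Chemokines are small secreted proteins that guide leukocytes along a gradient to cells that carry the matching receptor. Ccl3, Ccl4, Ccl5 and Xcl1 are known as products of activated or memory CD8+ T cells and NK cells, and myeloid cells also make Ccl3 and Ccl4. Ccl6 and Ccl9 are rodent chemokines of myeloid cells, Cxcl2 draws neutrophils and is made by activated neutrophils and monocytes, Cxcl10 is induced by interferon, and Cxcl16 is made as a membrane-bound protein by macrophages and dendritic cells.

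Depth was 37166063 reads in genes for B16 CTRL, 39068457 for the B16 library labelled residual, 74879891 for CT-26 CTRL and 50823018 for the CT-26 library labelled residual. Haemoglobin genes took 1.28% of these reads in B16 CTRL against 42.0% in the residual library, and 0.629% against 10.8% in CT-26, which lowers the CPM of other genes there; the tables of the models were also normalized separately. Cd8a, which encodes a chain of the CD8 coreceptor, reached 424 CPM (counts per 1000000 reads in genes) in B16 CTRL against 1.66 CPM in the library labelled residual, and 734 against 8.78 CPM in CT-26. The residual libraries therefore held little of the RNA that defines their CD8+ label. All 8 neutrophil markers were lower in CTRL in both models, with a summed level of 342 CPM in B16 CTRL against 9838 CPM in the B16 residual library, and of 119 against 10059 CPM in CT-26; Camp, Ltf and Ngp, genes of neutrophil granules, had 0 reads in B16 CTRL. The 8 monocyte markers summed to 3241 CPM in B16 CTRL against 4956 CPM in the residual library, and to 343 against 9377 CPM in CT-26. Of these sums, Lyz2 alone gave 2471 against 3936 CPM in B16 and 109 against 7305 CPM in CT-26. Csf1r stood at 309 against 201 CPM in B16. By normalized counts, all 8 monocyte markers were below the residual library in both models. The 8 B cell markers summed to 7166 CPM in B16 CTRL against 766 CPM, and to 251 against 864 CPM in CT-26. The 5 CD8 T cell markers (the CD8 and CD3 chains) summed to 2494 CPM in B16 CTRL against 195 CPM in the residual library. In CT-26 they summed to 4327 against 610 CPM. Of the residual sums, Cd3e gave 42.5 CPM in B16 and 175 CPM in CT-26, Cd3d 73.3 and 173, and Cd3g 76.1 and 228. In these bulk libraries fewer cells of a type and less RNA per cell cannot be told apart, and the part of this make-up in each ligand result was not tested.

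On chromosome 11 of mm10, 5 ligands lie close together in the order Ccl5 (83525778 to 83530518), Ccl9 (83572919 to 83578636), Ccl6 (83587882 to 83593087), Ccl3 (83647844 to 83649355) and Ccl4 (83662584 to 83664683), with Ccl4 alone on the forward strand. Cxcl16 lies apart on the same chromosome (70453983 to 70459984), Cxcl2 (90903871 to 90905938) and Cxcl10 (92346638 to 92348889) lie on chromosome 5, and Xcl1 on chromosome 1 (164931644 to 164935527). The promoters of 4 ligands are shown because Cxcl2 and Cxcl10 were the ligands furthest below the residual library in B16 (Cxcl10 was in the middle of the 9 in CT-26), and because the neighbours Ccl6 and Ccl9 moved together and differed most between the models. The windows are RefSeq sequences on GRCm38.p6 from 250 bases before to 50 bases after a start site, read 5′ to 3′ on the strand of the gene. Capitals mark matches, on either strand, to a binding motif of NF-kB searched as GGGNNNTTCC, to the interferon-stimulated response element (ISRE) searched as GAAANNGAAA, and to an AP-1 motif searched as TGANTCA.
Cxcl2 promoter (chr5:90903649-90903948, forward strand): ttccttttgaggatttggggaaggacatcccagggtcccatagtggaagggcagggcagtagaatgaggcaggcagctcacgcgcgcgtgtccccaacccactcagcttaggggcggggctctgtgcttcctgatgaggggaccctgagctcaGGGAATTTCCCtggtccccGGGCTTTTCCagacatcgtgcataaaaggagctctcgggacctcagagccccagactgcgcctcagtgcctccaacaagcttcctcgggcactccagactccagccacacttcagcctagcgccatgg
Cxcl10 promoter (chr5:92348840-92349139, reverse strand): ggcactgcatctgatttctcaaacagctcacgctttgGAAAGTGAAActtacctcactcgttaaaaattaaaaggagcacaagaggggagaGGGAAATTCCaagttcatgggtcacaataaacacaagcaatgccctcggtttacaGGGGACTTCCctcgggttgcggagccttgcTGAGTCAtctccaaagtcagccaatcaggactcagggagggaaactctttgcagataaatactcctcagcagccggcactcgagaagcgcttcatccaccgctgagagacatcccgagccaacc
Ccl6 promoter (chr11:83593038-83593337, reverse strand): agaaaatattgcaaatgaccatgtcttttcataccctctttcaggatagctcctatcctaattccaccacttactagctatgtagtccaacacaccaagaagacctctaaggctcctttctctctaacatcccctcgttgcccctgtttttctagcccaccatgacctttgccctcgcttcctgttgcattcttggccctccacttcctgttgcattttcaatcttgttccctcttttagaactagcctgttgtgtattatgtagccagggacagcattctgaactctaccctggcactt
Ccl9 promoter (chr11:83578587-83578886, reverse strand): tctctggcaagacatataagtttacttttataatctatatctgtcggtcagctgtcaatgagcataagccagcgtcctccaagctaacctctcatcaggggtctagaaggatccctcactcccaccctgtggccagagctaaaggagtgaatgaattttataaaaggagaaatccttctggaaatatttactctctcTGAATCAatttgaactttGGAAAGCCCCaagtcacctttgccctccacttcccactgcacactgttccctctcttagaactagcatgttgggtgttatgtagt

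Cxcl2 held NF-kB matches at window positions 154 to 164, where a match on each strand overlaps the other, and at 173 to 182. Cxcl10 held an ISRE match at positions 38 to 47, NF-kB matches at 92 to 101 and 147 to 156, and an AP-1 match at 177 to 183, a pattern that reads the same on both strands. Ccl9 held an AP-1 match at 198 to 204 and an NF-kB match on the opposite strand at 216 to 225. These letters occurred nowhere in the windows of Ccl6, Ccl3 and Xcl1, and a window was at hand for 6 of the 9 ligands. Of 32851 promoter windows of this length in the mouse table, 5.56% held the NF-kB motif, 3.44% the ISRE and 7.81% the AP-1 motif. A match describes the letters and not a bound site, and the motifs were chosen with the ligands' results known.

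By the deposited normalized counts, every ligand except Ccl5 was more than 4-fold below its residual library in CTRL in both models. A gene was called lower or higher when its normalized counts differed at least 2-fold and its higher library reached 10 CPM. By this rule 7 of the 8 ligands at that level were lower in B16 CTRL and 0 higher, where 11.7% of the 9289 genes at that level were lower and 26.8% higher. In CT-26, 6 of 7 ligands at that level were lower in CTRL and 0 higher, where 16.3% of 9514 genes were lower and 14.5% higher. A gene that reached 10 CPM in the residual library alone could only be called lower in CTRL, or not called. This held in B16 for Cxcl2 (9.69 CPM in CTRL), Cxcl10 (0.511) and Cxcl16 (4.36). In CT-26 it held for Ccl3 (5.57 CPM in CTRL), Ccl9 (3.98), Cxcl2 (6.40) and Cxcl10 (0.868). The median log2 ratio of CTRL over residual over all 9 ligands was -2.72 in B16 and -3.78 in CT-26, beside 0.47 and 0.23 over all genes at 10 CPM. With 1 library per group, no test was made within a model, and the 95% intervals given with log2 ratios cover counting error only. Scaled to total reads instead, all B16 ratios were higher and those of Ccl6, Ccl9, Xcl1 and Cxcl16 were -1.77, -1.88, -1.28 and -1.28, under 4-fold; in CT-26, that of Xcl1 was -1.95. In the authors' deposited table the log2 folds of the 8 ligands other than Ccl5 ran between -5.06 and -1.82 in B16 and between -4.78 and -1.83 in CT-26.

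**Figure D1:**
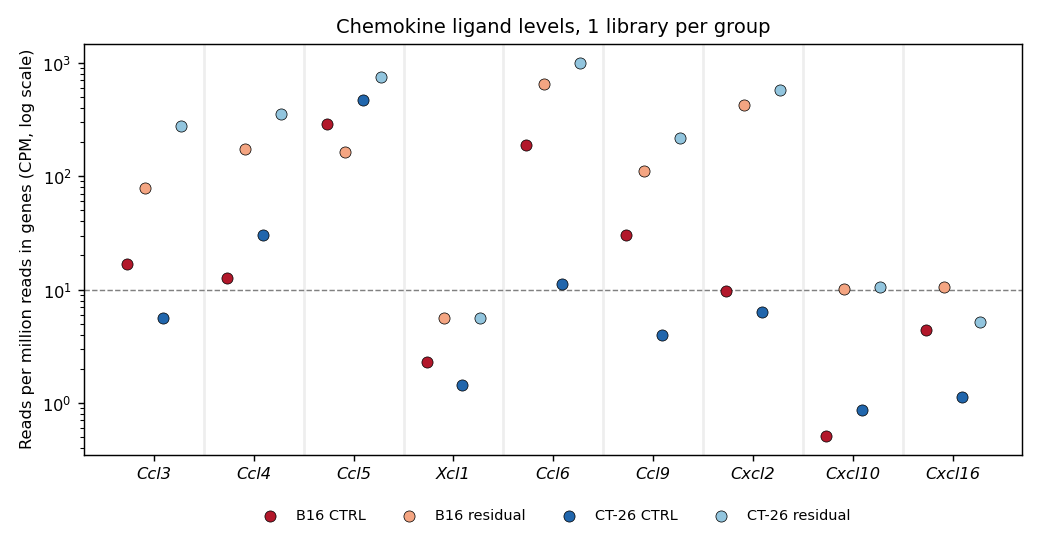
Level in CPM (log axis) of the 9 ligand genes in the 4 libraries, with 1 point per library and a dashed line at 10 CPM. The 2 CTRL points lie below both residual points for every gene but Ccl5, whose B16 CTRL library reached 289 CPM against 163 CPM in the B16 residual library.

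Ccl3 and Ccl4, inflammatory ligands that draw T cells and monocytes (Ccl3 binds Ccr1), were both far lower in CTRL. Ccl3 had 481 normalized counts in B16 CTRL against 4059 in the library labelled residual, and 321 against 18245 in CT-26. Its log2 ratio was -3.08 (-3.20 to -2.95) in B16, and in CT-26 it was -5.82 (-5.97 to -5.69). Ccl4 had 362 normalized counts in B16 CTRL against 8847 in the residual library, and 1739 against 23317 in CT-26. Its log2 ratios were -4.61 (-4.75 to -4.48) and -3.74 (-3.81 to -3.68), so Ccl4 showed the larger difference in B16 and Ccl3 in CT-26.

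The balance of these neighbours turned in opposite directions. The B16 CTRL library held 0.753 Ccl4 reads per Ccl3 read against 2.18 in its residual library, whereas CT-26 CTRL held 5.41 against 1.28. On the log2 scale the ratio differed by -1.53 (-1.72 to -1.35) in B16 and by 2.08 (1.93 to 2.24) in CT-26, values that do not depend on how the libraries are scaled.

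Ccl5, a ligand of Ccr1 and Ccr3 that memory CD8+ T cells and NK cells make in large amounts, was the ligand that differed least. It had 8230 normalized counts in B16 CTRL against 8292 in the residual library, a log2 ratio of -0.01 (-0.06 to 0.03), and 27349 against 49064 in CT-26, a log2 ratio of -0.84 (-0.86 to -0.82). Neither passed the 2-fold rule. The B16 value turned positive, to 0.83, when the libraries were scaled to total reads, haemoglobin included.

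Set against a T cell gene, Ccl5 was lower in both CTRL libraries. Per read of Cd3e, a chain of the CD3 complex, there were 0.800 Ccl5 reads in B16 CTRL against 3.83 in the residual library, and 0.634 against 4.25 in CT-26. These ratios were 4.78-fold and 6.71-fold lower in CTRL. NK cells make Ccl5 without surface CD3. The 8 NK cell markers summed to 205 CPM in B16 CTRL against 160 CPM in the residual library. In CT-26 they summed to 349 against 1104 CPM. Of the B16 sums, Prf1 gave 80.2 against 38.9 CPM and Klrk1 55.8 against 21.6 CPM. By normalized counts, 6 of the 8 NK cell markers had a B16 log2 ratio below 0, with a median of -1.17. Of these 8, 3 were called lower in B16 CTRL and 0 higher. Of the CT-26 sums, Prf1 gave 197 against 328 CPM, Eomes 84.0 against 99.2 CPM and Klrk1 56.4 against 160 CPM. Ncr1 gave 3.51 against 303 CPM and Klre1 4.73 against 85.7 CPM. By normalized counts, all 8 had a CT-26 log2 ratio below 0, with a median of -4.60. There, 5 were called lower and 0 higher. The CD4 T cell markers summed to 44.3 against 38.1 CPM in B16 and to 8.11 against 186 CPM in CT-26. Their median log2 ratio in B16 was -0.41. The part of these cells in the ratio was not tested.

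Xcl1, the lymphotactin gene whose product draws cross-presenting dendritic cells that carry Xcr1, was scarce throughout and stayed below 10 CPM. It had 85 reads in B16 CTRL against 218 in the residual library, and 108 against 285 in CT-26. The log2 ratios of -2.11 (-2.51 to -1.76) and -2.14 (-2.49 to -1.83) were close in the 2 models. Gm20743, which overlaps Xcl1 on the other strand, had 33 reads in B16 CTRL against 13 in the residual library, and 13 against 8 in CT-26. The sources used here do not say whether strand was used in counting, so reads of such overlapping genes may be shared.

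Ccl6 and Ccl9, ligands of Ccr1, showed the widest gap between the models. Ccl6 had 5421 normalized counts in B16 CTRL against 33154 in the library labelled residual, and 646 against 66309 in CT-26. The log2 ratios were -2.61 (-2.65 to -2.57) and -6.68 (-6.78 to -6.58), or 6.12-fold and 103-fold lower. Ccl9 had 854 normalized counts in B16 CTRL against 5650, and 230 against 14211 in CT-26, with log2 ratios of -2.72 (-2.82 to -2.63) and -5.95 (-6.12 to -5.79). Both ligands were well above 10 CPM in B16 CTRL, at 191 and 30.0 CPM, while in CT-26 CTRL Ccl6 reached 11.2 CPM and Ccl9 3.98 CPM.

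The ratios of Ccl6 and Ccl9 were higher in B16 than in CT-26 by 4.07 and 3.22 on the log2 scale, and that of Ccl3 by 2.75. The other 6 ligands differed by -1.28 (Cxcl10) to 0.83 (Ccl5). Beside them, the median log2 ratio of the monocyte markers was -1.55 in B16 and -5.61 in CT-26. That of the NK cell markers was -1.17 and -4.60, and that of the neutrophil markers -6.25 and -6.77. Medians were also lower in CT-26 for B cell (2.57 and -2.00), CD4 T cell (-0.41 and -4.71) and dendritic cell markers (-1.57 and -5.16). For CD8 T cell markers they were 2.25 and 1.90, the values of Cd3e. In that list Cd8a stood at 7.13 in B16 and 6.19 in CT-26, and Cd8b1 at 8.32 and 5.80. Cd3d was lowest, at 1.33 and 1.34. Platelet (-3.77 and -2.26) and erythroid markers (-5.87 and -4.26) went the other way. Csf1r, the receptor of the monocyte growth factor, stood at 309 CPM in B16 CTRL and at 9.94 CPM in CT-26 CTRL. Ly6c2, another monocyte marker, stood at 219 and 155 CPM there. Per Csf1r read, Ccl6 was lower in CTRL in both models, with 0.616 reads in B16 CTRL against 3.24 in the residual library and 1.13 against 2.26 in CT-26. Per S100a8 read, Ccl6 was far higher in B16 CTRL, with 2.91 reads against 0.171 in the residual library, and nearly even in CT-26, with 0.427 against 0.397. The models differ in tumour and may differ in more, such as the host mice or the multimer, and these cannot be told apart here. A difference between the models rests on 1 pair of libraries each and was not tested.

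Cxcl2, a ligand of the neutrophil receptor Cxcr2, was the ligand furthest below the residual library in both models. It had 360 reads in B16 CTRL against 16449 in the residual library, or 276 against 21484 normalized counts. In CT-26 it had 479 against 29402 reads, or 369 against 38166 normalized counts. The log2 ratios were -6.28 (-6.44 to -6.13) and -6.69 (-6.83 to -6.56), or 77.9-fold and 103-fold lower, and only 0.592% and 0.967% of the genes at 10 CPM had a lower ratio. In CT-26 the intervals of Cxcl2 and Ccl6 overlapped. Per read of the neutrophil gene S100a8, there were 0.148 Cxcl2 reads in B16 CTRL against 0.111 in the residual library, and 0.244 against 0.229 in CT-26. That ratio was 1.33-fold higher in B16 CTRL, and in CT-26 the interval of its log2 difference, -0.05 to 0.24, included 0. Per read of Cd14, 1 of the monocyte markers, Cxcl2 had 0.399 reads in B16 CTRL against 1.17 in the residual library. In CT-26 it had 1.10 against 0.868. Cd14 had the lowest log2 ratio of the 8 monocyte markers in both models, -4.73 in B16 and -7.03 in CT-26. The medians of that list were -1.55 and -5.61, so Cd14 does not stand for the list.

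Cxcl10, a ligand of Cxcr3, and Cxcl16, the ligand of Cxcr6, were at low levels in all libraries. Cxcl10 had 19 reads in B16 CTRL against 398 in the residual library, and 65 against 541 in CT-26. Its log2 ratios were -5.07 (-5.91 to -4.50) and -3.78 (-4.20 to -3.44), and the gene was at 0.511 and 0.868 CPM in the CTRL libraries of B16 and CT-26. The overlapping gene Art3, on the other strand, had 118 reads in B16 CTRL, against 19 of Cxcl10, so the few Cxcl10 reads there are uncertain. Ccl6 and Cxcl16 also overlap a gene on the other strand, with at most 273 and 39 reads in any library. Cxcl16 had 162 reads in B16 CTRL against 415 in the residual library, and 84 against 265 in CT-26. Its log2 ratios were -2.12 (-2.40 to -1.86) and -2.39 (-2.78 to -2.05); at 5.21 CPM in the CT-26 residual library it stayed under the level for a call there.

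**Figure D2:**
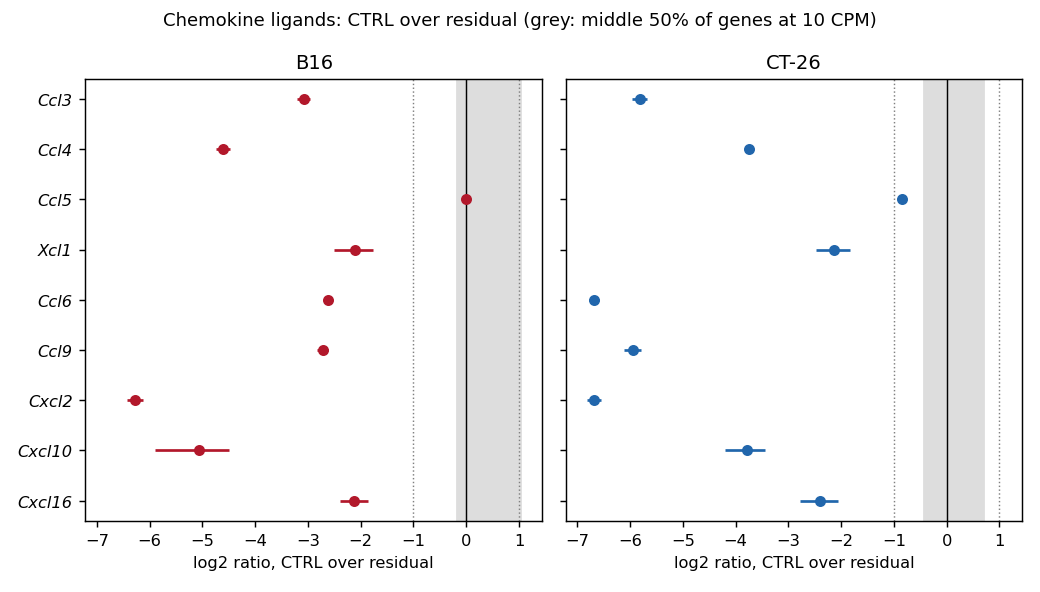
Log2 ratio of CTRL over residual normalized counts (pseudocount 1) of the 9 ligands in B16 and CT-26, with 95% intervals for counting error. The grey band spans the middle 50% of genes at 10 CPM, and dotted lines mark 2-fold; Ccl5 is at -0.01 and -0.84, and all other ligands lie below -2.

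Ccl5 dominated the ligand reads of the CTRL libraries. It made up 52.0% (51.3 to 52.7) of the 20672 reads of the 9 ligands in B16 CTRL against 10.01% (9.78 to 10.2) of 63421 in the residual library. In CT-26 it made up 88.6% (88.3 to 89.0) of 40048 reads in CTRL against 23.3% (23.1 to 23.5) of 162338 in the residual library. Intervals are 95% Wilson intervals and cover counting error only, and these shares are free of any scaling between libraries.

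The remaining reads differed between the CTRL libraries. In B16 CTRL, Ccl6 made up 34.2% and Ccl4 2.29%, whereas in CT-26 CTRL Ccl4 made up 5.64% and Ccl6 2.09%. In both residual libraries Ccl6 took the largest share, 40.0% in B16 and 31.5% in CT-26, and Cxcl2 took 25.9% and 18.1%. Cxcl2 made up 1.74% of the ligand reads in B16 CTRL and 1.20% in CT-26 CTRL.

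**Figure D3:**
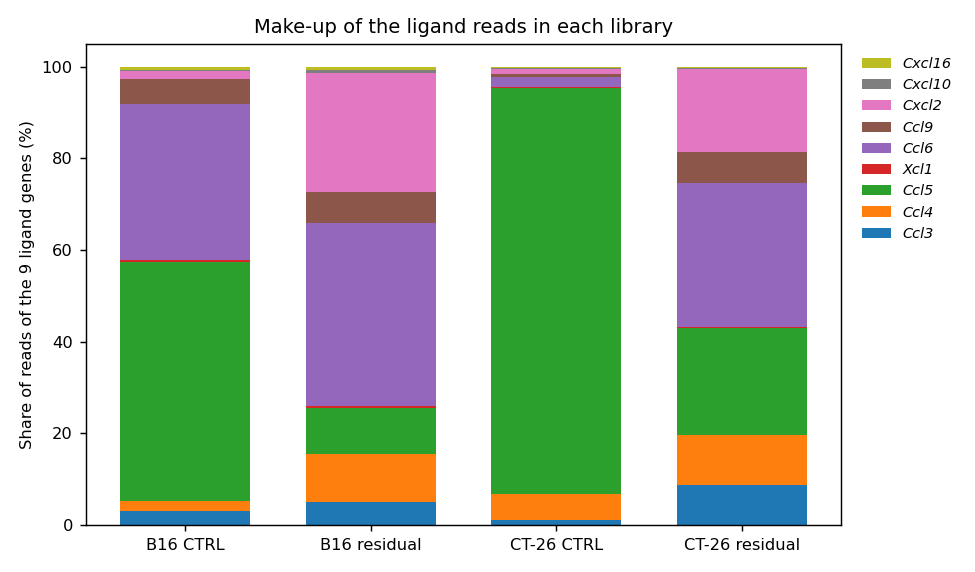
Share of the raw reads of the 9 ligand genes that each gene takes in each library, as bars that start at 0 and add to 100%. Ccl5 takes 52.0% in B16 CTRL and 88.6% in CT-26 CTRL, against 10.01% and 23.3% in the residual libraries.

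Per length of exon, Ccl5 led both CTRL libraries and the CT-26 residual library, and Ccl6 led the B16 residual library. In RPKM (the CPM divided by the kilobases of exon), Ccl5 stood at 301 in B16 CTRL and 494 in CT-26 CTRL, ahead of Ccl6 at 106 in B16 CTRL and of Ccl4 at 45.7 in CT-26 CTRL. In the B16 residual library the order was Ccl6 (362 RPKM), Ccl4 (263), Cxcl2 (204), Ccl5 (169) and Ccl3 (104). In the CT-26 residual library it was Ccl5 (775 RPKM), Ccl6 (560), Ccl4 (536), Ccl3 (361) and Cxcl2 (280). Cxcl10 and Cxcl16 were lowest in all 4 libraries, between 0.227 and 4.73 RPKM. With 1 library per group there is no spread between libraries to set these neighbours apart.

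**Figure D4:**
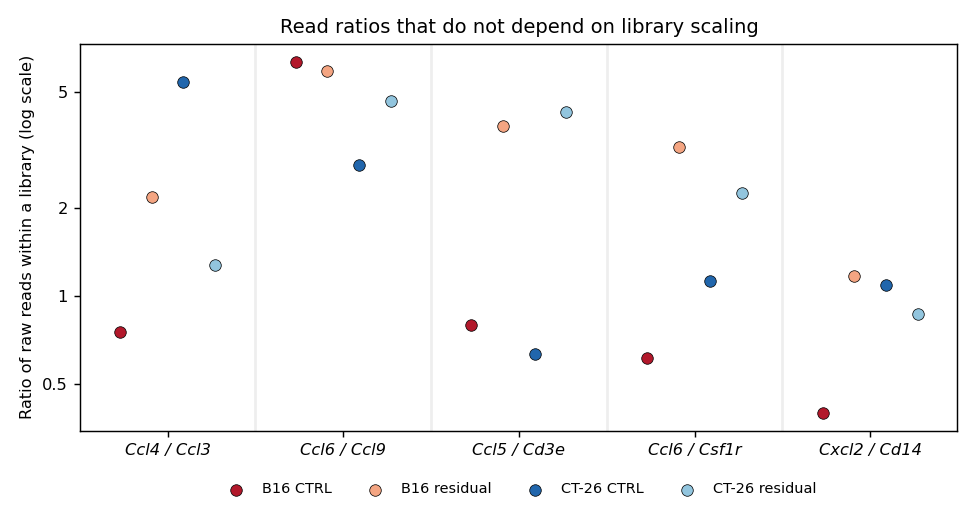
Ratios of raw reads of a ligand and a second gene within each library (log axis), 1 point per library. Ccl4 per Ccl3 is lower in CTRL in B16 (0.753 against 2.18) and higher in CT-26 (5.41 against 1.28), while Ccl5 per Cd3e is lower in CTRL in both models.

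A fit over the 4 libraries had a term for population and a term for model, and took the models as the only repeat of the contrast. By edgeR's quasi-likelihood test with Benjamini-Hochberg adjustment, 0 of the 9 ligands and 0% of 18749 genes were called lower in CTRL at an adjusted p of 0.05, while 8 ligands and 2998 genes (15.99%) had an unadjusted p below 0.05. Adjusted p was 0.18 for Cxcl2 and Ccl4, at log2 ratios of -6.64 and -4.33, and 0.49 for Ccl5, at -0.58. The remaining ligands had adjusted p of 0.20 to 0.26, and all 9 log2 ratios were negative.

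The outcome of that fit depended on the tool and on the filter. DESeq2's Wald test with the same terms called 8 of 9 ligands lower, all but Ccl5, where 8.38% of 18332 genes were called lower. Its adjusted p ran to 0.042 for Xcl1 and 0.011 for Cxcl16, and stood at 0.69 for Ccl5. The edgeR test with no filter on low counts called 6 of 9 ligands lower, where 2.04% of 40101 genes were called lower. The fit leaves 1 residual degree of freedom, which is how far the CTRL to residual ratio of a gene differed between the 2 models. Its p-values rest on that difference, with information shared across genes, and not on a spread between animals. The labels name no separate animals. With the B16 CTRL library left out and population as the sole term, edgeR called Ccl3, Ccl6, Ccl9 and Cxcl2 lower at adjusted p of 0.022 to 0.028, where 2.43% of 21728 genes were called lower. That fit sets 1 CTRL library against 2 residual libraries of different models, so its spread comes from the residual libraries alone and the lone CTRL library is assumed to vary like them. With the CT-26 residual library left out in the same way, the log2 ratio of Ccl5 turned to 0.42 and no ligand was called.

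The 6 receptors analysed here did not move in one direction. Cxcr6, the Cxcl16 receptor of effector and resident T cells, had 1306 normalized counts in B16 CTRL against 73.1 in the residual library, and 5311 against 532 in CT-26. Cxcr3, the Cxcl10 receptor of activated T cells, had 1340 against 383 in B16 and 3735 against 1425 in CT-26. These 2 receptors were called higher in CTRL in both models, with log2 ratios of 4.14 and 3.32 for Cxcr6 and of 1.81 and 1.39 for Cxcr3. The log2 ratios of their ligands Cxcl16 and Cxcl10 were below 0 in the same libraries.

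Ccr1, the receptor of Ccl3, Ccl5, Ccl6 and Ccl9, and Cxcr2, the receptor of Cxcl2, were called lower in CTRL in both models. Ccr1 had 428 normalized counts in B16 CTRL against 5377 in the residual library and 247 against 22983 in CT-26. Cxcr2 had 443 against 6634 in B16 and 366 against 26799 in CT-26. Ccr3 and Xcr1 stayed under 10 CPM in all libraries. In each model, 2 of these 4 receptors at that level were thus higher and 2 lower. Over all genes at that level, 26.8% were higher and 11.7% lower in B16, and 14.5% and 16.3% in CT-26. In B16, Cxcr3 and Cxcr6 reached 10 CPM in CTRL alone, so no call but higher was open to them. The same held for Cxcr6 in CT-26. There, Ccr1 and Cxcr2 reached it in the residual library alone, so no call but lower was open.

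**Figure D5:**
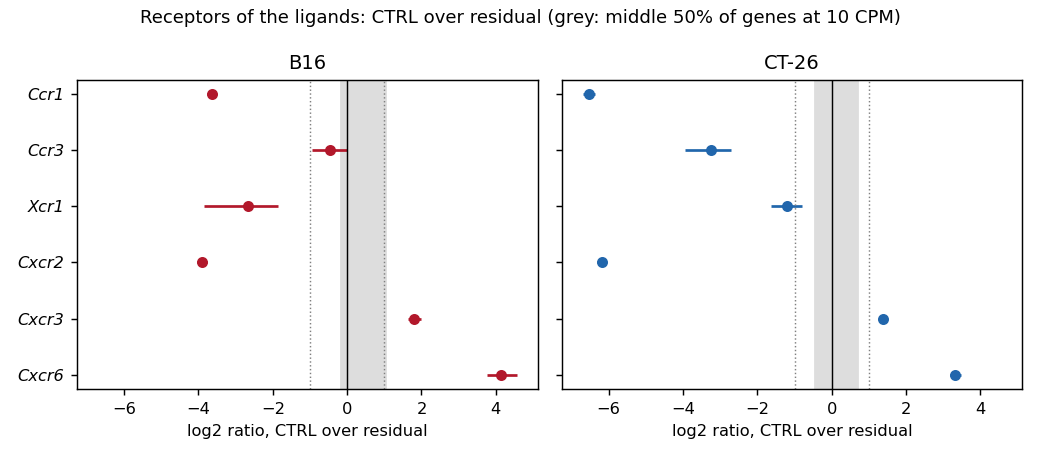
Log2 ratio of CTRL over residual normalized counts of 6 receptors of the ligands, drawn as for the ligands with 95% counting intervals and a grey band for the middle 50% of genes at 10 CPM. Cxcr3 and Cxcr6 lie above 1 in both models, and Ccr1 and Cxcr2 lie below -3.

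Of the genes that act on chemokines after secretion, Dpp4, a peptidase that trims the start of several of them, was called higher in CTRL, with 4833 normalized counts in B16 CTRL against 956 in the residual library and 13649 against 2368 in CT-26. Adam10, a protease that sheds Cxcl16 from the membrane, had 2707 normalized counts in B16 CTRL against 1855 in the residual library and 8885 against 4886 in CT-26, and was not called. Mmp9, a protease of neutrophil granules, was called lower, at -3.05 and -6.00. In each model 1 of the 4 genes of this list was called higher and 1 lower, and these 3 were named after their values were seen. Of 16 chemokine receptors of other ligands, 8 reached 10 CPM in B16, with 4 higher and 3 lower in CTRL, and 7 in CT-26, with 2 higher and 3 lower. Of these, Ccr6 and Ccr9 in B16 and Ccr9 in CT-26 reached it in CTRL alone. Ccrl2 reached it in the residual library alone in both models.

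Of 29 other chemokine ligand genes, 3 reached 10 CPM in B16 and 4 in CT-26, and each of these was lower in CTRL. Apart from Ppbp in B16, they reached that level in the residual library alone, so no other call was open to them. Pf4, a chemokine of platelet granules, had 296 reads in B16 CTRL against 7430 in the residual library, and 151 against 1298 in CT-26. Ppbp, from the same granules, had 595 against 5494 reads in B16 and 145 against 554 in CT-26. They had values of -5.41 and -3.97 on the log2 scale in B16, and in CT-26 of -3.84 and -2.68, beside platelet markers at medians of -3.77 (B16) and -2.26 (CT-26). Ccl2, which draws monocytes, had 21 reads in B16 CTRL against 417 in the residual library, and 1 against 1036 in CT-26. Ccl24 had 0 reads against 11 in B16 and 8 against 772 in CT-26. Ccl25, known from thymus and gut, had 118 reads in B16 CTRL against 88 and 590 against 313 in CT-26, and its log2 ratios of -0.34 and 0.16 did not pass the rule. The median log2 ratio of the 29 genes was -0.34 in B16 and -1.20 in CT-26, and most had few reads.

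Genes most like a ligand were sought by the root mean square difference of log2(CPM + 1), centred per gene, over the 4 libraries among 9309 genes that reached 10 CPM. Nearest to Ccl3 were Cebpd, at 0.0105, Hlx and Lilrb4. Nearest to Cxcl2 were Dmxl2, Acod1 and S100a9, at 0.294, 0.408 and 0.467. Nearest to Ccl6 were Mgst1, Alox5ap and Tyrobp, and nearest to Ccl5 were Sft2d2, Hrh2 and Edem2 at 0.0414 to 0.0578. Nearest to Ccl4 were Hebp1, Plk3 and Fosl2, at 0.0821 to 0.289, and among those nearest to Ccl9 were Litaf and Hacd4, at 0.149 and 0.157. Ston2, Csf1 and Klf5 came nearest to Cxcl10, and Akap7, Itgb3 and Gsto1 to Cxcl16. Among the ligands themselves, Xcl1 and Cxcl16 were closest, at 0.46, followed by Ccl3 and Ccl9, at 0.52, and Ccl6 and Ccl9, at 0.53. Xcl1 reached at most 5.61 CPM and Cxcl16 at most 10.6 CPM, levels at which the added 1 shrinks differences. Ccl5 and Cxcl2 were furthest apart, at 3.04. With 4 points per gene these distances only describe the libraries.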

How the data were processed

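Per the labels' protocols, Takara SMART-Seq v4 chemistry was used on little RNA. Named without roles in the submitters' processing notes are DESeq2, HTSeq 0.11.2, STAR 2.7.3a and the build mm10. Per the file headers, each model has a table of raw read counts per gene and of normalized counts (a signal per gene), the latter being the deposited counts divided by 1 size factor per library: 1.31 and 0.766 for B16 CTRL and residual, 1.30 and 0.770 for CT-26. That factor was taken as the median ratio of the raw to the normalized counts of a library. Multiplied by it, 100% of values were whole within 1e-06, which shows that a single factor per library links these counts. The count tests used the deposited raw counts. The models were normalized separately by the authors, so normalized counts were compared within a model. The deposited log2 fold served as an alternative, and the deposited p-value was not used.

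The members and lists were chosen with earlier results of these data known. Log2 ratios used a pseudocount of 1. CPM, RPKM and Wilson and exact ratio intervals (conditional binomial, Clopper-Pearson; read ratios by a normal approximation on the log scale) were computed from raw counts, with exon lengths and positions from GENCODE M21 on the same build. A level of 10 CPM equals 372, 391, 749 and 508 reads in B16 CTRL and residual and CT-26 CTRL and residual. Reads without molecular identifiers are not independent molecules, so intervals cover counting error only. Of the 14 gene lists, 1 marker, an erythroid one, had no match; erythroid markers summed to 13269 CPM in B16 CTRL against 426425 in the residual library and 6442 against 109333 in CT-26, and dendritic cell markers to 21.4 against 26.9 and 3.65 against 61.1.

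The fit over both models used edgeR 4.0.16 (TMM, filterByExpr, glmQLFit, glmQLFTest) and DESeq2 1.42.0 in R 4.3.3; other values came from Python 3.11.15. Named genes were all members, receptors at 10 CPM, the 5 other ligands with most reads and the 3 nearest genes per member; 1 receptor and 1 nearest gene under this rule are not reported here.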

Additional observations from a re-analysis of the deposited data

Results flagged for a closer look

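The ratio of Ccl4 to Ccl3 reads moved in opposite directions in the 2 models, by -1.53 on the log2 scale (CTRL over residual) in B16 and by 2.08 in CT-26. Each direction rests on 1 CTRL and 1 residual library, and the difference between the models was not tested.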

How the results depend on the processing

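The labels give no replicate numbers. The only pairing is therefore that of the CTRL and residual library of a model, which the model term of the fit holds. In edgeR on all 4 libraries with the filter on low counts, no ligand was called with or without that term. The count of ligands lower in CTRL was 7 in B16 and 6 in CT-26 under other scalings, pseudocounts of 0.1 and 5, a 4-fold limit and the authors' log2 fold, and 8 in each model with a level of 1 CPM or none. Scaling to total reads gave 90.8% of all B16 calls as higher against 69.5%, and 58.8% against 47.0% in CT-26, since it raised the median log2 ratio of all genes to 1.32 and 0.42. Against 1088 lower and 2485 higher genes in B16 and 1555 lower and 1381 higher in CT-26, total-read scaling gave 597 and 5911, and 1386 and 1981; a 4-fold limit gave 551 and 409, and 974 and 208; a level of 1 CPM gave 2770 and 3720, and 3231 and 2154; and no level gave 20338 and 5643, and 8073 and 5627. In the fit over both models, the count of ligands called lower was 0 with RLE factors, without the model term, and without haemoglobin, immunoglobulin and mitochondrial genes, but 8 with DESeq2 and 6 with no filter on low counts, when 820 genes (2.04% of 40101) were lower and 167 higher; DESeq2 called 1536 lower and 317 higher. Leaving out 1 library at a time, without the model term, gave 0 to 4 ligands, with 4 (Ccl3, Ccl6, Ccl9 and Cxcl2) and 527 lower and 24 higher genes of 21728 without B16 CTRL, and 0 ligands without each of the others, where 11 genes were lower without CT-26 CTRL. Without the CT-26 residual library, Ccl5 turned to 0.42. The share of Ccl5 per kilobase of exon was 64.2% in B16 CTRL and 14.6% in B16 residual, and 88.0% and 29.8% in CT-26. The cause of these changes was not tested. Cxcl10 in B16 had the widest counting interval of the ligands (-5.91 to -4.50), with 19 reads in CTRL.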
